A study of Homo sapiens with 15 samples.

Results

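The RNA pelleted by polyethylene glycol (PEG), a molecular crowder, was compared with the RNA of the cytosolic extract it came from. The libraries were chosen by their labels, 3 PEG and 3 input, which are 6 of the 15 libraries of the series. The genes were 16612 of the 57500 gene rows, those that reached 10 counts in 2 or more replicates under all 5 conditions. Extracts were made from U2OS cells, a human osteosarcoma line. They were incubated as translation reactions for 2 h at 37 °C with 1% PEG, or without addition (mock), then spun at 14000 g for 10 min, and the pellets were washed, while input extract was not pelleted. Poly(A)-selected RNA was sequenced in 3 biological replicates per group, and the remaining 6 libraries (dsRNA and silvestrol pellets) were used here only to decide which genes were kept and in 1 alternative fit. The paper names its condensates after YFP-G3BP1, whereas the labels give these cells as wild type, and which applies here is not settled by the counts. The cell line is a single line, and PEG acted on an extract and not on living cells.

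Crowders such as PEG take up volume and push large molecules and complexes together, so that proteins and RNAs leave solution or demix into condensates. Stress granules, the condensates this system was built to model, form around the RNA-binding protein G3BP1 from mRNPs that have left translation, and long, poorly translated mRNAs are known to be favoured in them. A pellet spun from an extract can also hold ribosomes, membranes and organelles, so the mock pellet is the background of incubation, pelleting and washing without PEG. These steps cannot be told apart in mock against input. The counts show how the RNAs of a pellet are shared out, and not how much RNA was pelleted. A gene that is "higher" in the PEG pellet therefore takes a larger share there than in input.

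PEG libraries held 15.3, 25.5 and 25.7 M counts on genes (M, 1e6), against 23.1 to 46.9 M in input and 32.5 to 39.9 M in mock, and PEG replicate 1 was the shallowest library. The 20 most abundant genes took 9.91% to 12.2% of the counts with PEG, 7.14% to 7.94% in input and 5.27% to 6.19% in mock. Across genes, PEG replicates 2 and 3 were closer to each other (Pearson r of log2 CPM 0.992) than either was to PEG replicate 1 (0.984 in both cases), and the input libraries were likewise split between replicate 1 and the others (0.976 against 0.997). Of the 8 fixed mesenchymal and bone markers, VIM, SPARC, LGALS1, COL1A1, FN1, RUNX2 and THY1 were at 50.1 CPM (counts scaled to a library total of 1e6) or more in every input library, while COL1A2 was at 0.149 CPM or less. Of the markers of other cell types, PTPRC, CD3E, ALB, KRT20 and GFAP were at or under 0.39 CPM in input, and EPCAM lay between 7.70 and 11.7 CPM.

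Which transcripts were higher or lower in the PEG pellet was asked gene by gene with edgeR's quasi-likelihood test. With TMM scaling, which assumes that most genes keep their share, 4228 genes were higher in the pellet than in input (25.5% of those tested) and 4307 were lower (25.9%), and the median log2 fold change was -0.01. With library size only, in which every count is set against the total of its library, the median moved to -0.35, with 2337 genes higher (14.1%) and 6890 lower (41.5%), so that 25.3% and not 49.5% of the calls were in the higher direction. The difference between the 2 scalings is a shift of all genes by about the same amount, and for this reason counts of each class are given on both scales. Each count below is to be read against the shares of all genes on its scale, 25.5% and 25.9% or 14.1% and 41.5%. Without regard to a test, all PEG libraries lay above all input libraries for 28.7% of genes and below them for 33% (61.7% together). Mock pellets, tested against the same inputs, had 17.6% of genes higher and 15.8% lower with TMM, 33.4% together. Tested directly against mock, 31.3% of genes were higher with PEG and 32.2% lower, and 18.8% and 49.8% (68.6% together) with library size only. PEG and mock share their input libraries, so their fold changes over input are set side by side below, and the direct fit is the test of the difference.

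The lists of mRNA classes were written with earlier results of these data known. Among them, the PEG pellet was rich in short mRNAs of housekeeping machines and poor in long mRNAs of scaffold, chromatin and motor proteins. By median log2 fold change over input the cytosolic ribosomal proteins stood highest among the lists with at least 10 tested members, ahead of histones, Sm and LSm proteins, snoRNA host RNAs, snoRNAs and the respiratory chain. The giant scaffold proteins were lowest, next to nuclear-retained lncRNAs, core stress granule proteins and chromatin modifiers. Of the nuclear-retained lncRNAs, however, only 3 of 10 were lower and 2 higher (30% and 20%, against 25.9% and 25.5% of all genes). Their medians in PEG replicates 1 to 3 were -0.12, -0.79 and -0.83. The medians of some lists near the middle were above 0 with TMM and below 0 with library size only, among them translation factors, SR proteins and hnRNPs, and heat shock proteins. On the latter scale they still lay above the median of all genes (-0.35).

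Cytosolic ribosomal proteins, the protein parts of the translating ribosome, were higher for 79 of 80 mRNAs with TMM and for 76 with library size only, and lower for 0 on either scale. These mRNAs took 8.14%, 10.2% and 10.1% of the counts in the input libraries, 15.9%, 19.6% and 17.8% in the PEG libraries and 5.34%, 7.75% and 7.17% in the mock libraries, a share that needs no scaling between libraries. Every PEG library was above every input library, and every mock library was below every input library. RPL31 (ENSG00000071082, chr2:101001715-101024032), a protein of the large subunit, had 1184, 1114 and 1094 CPM in the 3 input libraries, 483, 729 and 694 in mock and 2474, 3528 and 3239 with PEG (log2 fold change 1.49, standard error 0.173, edgeR adjusted p = 0.000377). RPS29 and RPL39, also named by the study, had log2 fold changes of 1.24 and 0.92, and -0.71 and -0.93 in mock. The largest rise was that of RPL36A, at 1.94, and the most abundant member in input, RPL8, rose by 1.01. The 1 member not called was RPL17 (0.28, edgeR adjusted p = 0.161), named after its value was seen. Directly against mock all 80 were higher with PEG, with a median of 2.00 on the log2 scale. These genes have processed pseudogenes with which reads can be shared. RPL9P9 and RPS28P7, which were among the 8 largest rises by the fixed rule below (2.24 and 2.11), are such copies and cannot be told apart from their parent genes here.

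Ribosomal protein mRNAs start with a run of pyrimidines, the 5′ terminal oligopyrimidine tract, through which mTOR controls their translation. To see whether that start was shared by the other mRNAs of the pellet, RefSeq start sites (GRCh38.p14) were searched for a C between positions -5 and 5 followed by at least 5 bases that were C or T, on the strand of the gene. The sequences below show 4 ribosomal proteins, 2 elongation factors that carry the run but were not called, and 2 of the strongest rises without it. They are examples chosen with their values known and do not stand for their classes. The 30 bases run from 10 before the start to 20 from it, with the run in capitals.
RPL41 (chr12:56116623-56116652, plus strand, log2 fold change 1.39): cttcgCCTTTCTCTCggccttagcgccatt
RPL38 (chr17:74203668-74203697, plus strand, 1.93): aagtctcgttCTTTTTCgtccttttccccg
RPLP1 (chr15:69452808-69452837, plus strand, 1.42): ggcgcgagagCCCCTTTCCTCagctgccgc
RPS23 (chr5:82278335-82278364, minus strand, 1.87): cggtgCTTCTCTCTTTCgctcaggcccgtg
EEF1A1 (chr6:73521013-73521042, minus strand, 0.38): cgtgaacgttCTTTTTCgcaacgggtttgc
EEF2 (chr19:3985444-3985473, minus strand, -0.13): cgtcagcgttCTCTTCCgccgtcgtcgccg
NDUFA13 (chr19:19516215-19516244, plus strand, 2.02): ccggaagtgtgggatactgcgagtatggcg
LSM7 (chr19:2328567-2328596, minus strand, 1.99): tgcctgcgaagagccacacggcgcgacaag
The run was found in 47 of 64 matched ribosomal protein genes (73.4%), against 11.3% of all 11242 tested genes with a matched start. Outside the ribosomal proteins, the median log2 fold change was -0.05 for the 1221 genes with the run and -0.06 for those without. Among ribosomal proteins it was 1.39 both with and without the run. Those without it at the annotated start can still carry the tract at another start, so these 2 medians need not compare mRNAs with and without it. Of the 13 initiation and elongation factors with the run, 6 were higher and 1 lower, and their median was 0.38, against 0.17 for those without it. All 11 respiratory chain genes with the run were higher, at a median of 1.03, against 1.10 for those without it. These windows are a match of letters at an annotated start, and which start was used in U2OS cells was not measured.

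The rest of the translation machinery was less uniform. Of the initiation and elongation factors, 21 of 52 rose and 7 fell (40.4% and 13.5%, against 25.5% and 25.9% of all genes). With library size only 13 rose and 17 fell. Their median was 0.31 under TMM and -0.03 under library size. EIF3K, a small subunit of the eIF3 complex, rose by 1.28 on the log2 scale, and EIF4G2, an eIF4G relative that does not bind the cap-binding protein, changed by -1.19 (edgeR adjusted p = 0.000955). EEF1A1, which brings aminoacyl-tRNA to the ribosome and is the most abundant mRNA of this list, had 7039, 11062 and 10512 CPM in input and 10271, 13752 and 11964 with PEG, and the 2 groups overlapped (edgeR adjusted p = 0.15). Of 20 cytosolic aminoacyl-tRNA synthetases 7 rose (35%, against 25.5% of all genes) and 0 fell, and CARS, which charges cysteine tRNA, was the highest at 0.98. On the library-size scale 4 synthetases were higher and 3 lower.

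Most mRNAs of the mitochondrial ribosomal proteins and of the respiratory chain subunits encoded in the nucleus were also higher. Nuclear-encoded respiratory chain subunits were higher for 74 of 78 mRNAs (61 with library size only) and lower for 0 on both scales, with a median of 1.06. Mitochondrial ribosomal proteins were higher for 65 of 78 and lower for 0 (54 higher and 4 lower with library size only). NDUFA13 (ENSG00000186010, chr19:19515736-19529054), a small subunit of complex I, was the largest rise of its list and had 14.8, 23.3 and 20.6 CPM in input, 15.2, 16.4 and 16.3 in mock and 60.5, 85.6 and 84.9 with PEG (log2 fold change 2.02, standard error 0.191, edgeR adjusted p = 0.000254). Every PEG library was above every input and mock library. MRPL23 rose by 2.01, and the abundant ATP5F1B, the catalytic beta subunit of ATP synthase, by 0.71. Of the TOMM and TIMM import proteins 11 of 23 rose, led by TIMM17B at 1.41, and 1 fell, TIMM23B (-0.56), whose near-identical copy TIMM23 can share its reads. Scaled by library size 9 were higher and 3 lower.

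The 13 mRNAs encoded by the mitochondrial genome itself behaved differently. They are made inside the organelle and are not part of the cytosolic mRNA pool. With PEG 7 were higher than input and 0 lower (7 and 0 also with library size only, 9 and 1 with the replicate block), with a median of 1.03; in mock pellets 11 were higher and 1 lower, with a median of 1.45. As a share of counts they took 0.44%, 0.47% and 0.36% in input, 0.71%, 0.70% and 0.47% with PEG and 0.97%, 1.23% and 1.10% in mock, so the mock libraries were the highest. MT-ND3, a complex I subunit, had 75.8, 66.1 and 58.1 CPM in input, 187, 169 and 151 in mock and 356, 432 and 314 with PEG, a 5.67-fold rise (edgeR adjusted p = 0.000217), and was also higher with PEG than in mock (log2 difference 1.19, edgeR adjusted p = 0.000114). MT-CO1, a core subunit of cytochrome c oxidase, had 772, 1075 and 842 CPM in input, 1613, 2230.3 and 1963 in mock and 791, 944 and 522 with PEG. MT-CO1 was thus higher in mock than in input and lower with PEG than in mock (log2 difference -1.29, edgeR adjusted p = 0.000639), while MT-CO2 and MT-CO3, named after their values were seen, were higher with PEG than in input by 1.59 and 1.93. MT-ND6, the 1 member read from the other strand, had -0.97 (edgeR adjusted p = 0.123, 0.00196 with the block, and -1.86 on the log2 scale without PEG replicate 1).

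Among the listed enzymes and machines of the cytosol and of the ER more mRNAs rose than fell. Of 37 proteasome subunits 26 rose and 0 fell (19 and 1 with library size only), PSMC4, an ATPase of the regulatory particle, the most (1.39), while the abundant PSMD2, its large scaffold subunit, had 0.12 and overlapped with input. Of the 8 subunits of the CCT chaperonin, which folds actin and tubulin, 6 rose (5 with library size only) and 0 fell, led by CCT3 at 1.05, and the median per PEG library was 0.77, 0.76 and 0.74. Of 17 glycolytic enzymes 9 rose and 1 fell (7 and 3 with library size only). ENO1, which makes phosphoenolpyruvate, had 2001, 1645 and 1693 CPM in input and 3772, 4140.5 and 3644 with PEG (1.16), and HK2, the hexokinase that starts the pathway, was the 1 that fell (-0.63, edgeR adjusted p = 0.0147). Of 29 proteins of the ER translocon and ER folding 21 rose, led by SSR4 at 1.49, a subunit of the translocon-associated complex, and 3 fell: SRP9 (-0.63), STT3B (-0.48) and CANX (-0.39), the last of which kept its call in 2 of 6 fits without 1 library. On the library-size scale 14 of these were higher and 7 lower.

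Subunits of 1 complex did not always go together. RNA polymerase II has 12 subunits, of which 6 rose and 2 fell on both scales. POLR2A (ENSG00000181222, chr17:7484366-7514616), the catalytic subunit with 8355 nt of exons, had 251, 202 and 219 CPM in input, 299, 244 and 267 in mock and 83.8, 29.6 and 36.5 with PEG (log2 fold change -2.12, standard error 0.355, edgeR adjusted p = 0.00148), so that every PEG library was below every other. Without PEG replicate 1, which was the highest of the 3, its value was -2.76. POLR2I, a small subunit with 1269 nt of exons, had 73.4, 66.1 and 64.3 CPM in input, 35.2, 35.2 and 34.2 in mock and 148, 242 and 188 with PEG (log2 fold change 1.55, standard error 0.184, edgeR adjusted p = 0.000397). POLR2L rose by 1.39 and POLR2D fell by 0.73, both named after their values were seen, and the second largest subunit, POLR2B, had 288, 213 and 227 CPM in input and 234, 216 and 258 with PEG, which overlapped. Against exonic length, the 12 fold changes had a Spearman correlation of -0.86, a description over subunits that share the libraries.

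RNA-processing factors were split in the same way. Of 15 Sm and LSm proteins, the small rings that bind snRNAs and U-rich ends, 13 rose and 0 fell (11 and 0 with library size only). LSM7 had 167, 142 and 144 CPM in input, 117, 120.4 and 113 in mock and 489.7, 656 and 604 with PEG (log2 fold change 1.99, standard error 0.159, edgeR adjusted p = 0.000217). Of 34 SR proteins and hnRNPs, larger splicing regulators, 12 rose and 3 fell (35.3% and 8.82%, against 25.5% and 25.9% of all genes). SRSF5 rose the most (1.22), and HNRNPUL1 (-0.94), SRSF10 (-0.49) and HNRNPLL (-0.39) fell. HNRNPLL lost its call in 3 of 6 fits that left out a library. With library size only 5 were higher and 9 lower. DEAD-box and DEAH-box helicases had a median of 0.01, with 13 of 50 higher (26%, near the 25.5% of all genes) and 7 lower, and DDX17 fell by 0.85. On the library-size scale 7 of the 50 helicases were higher and 23 lower, near the 14.1% and 41.5% of all genes on that scale.

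At the other end of the scale were long mRNAs. Giant scaffold proteins, the cytoskeletal linkers, HERC-type ligases and similar very large proteins, were lower for 26 of 30 mRNAs and higher for 0, and lower for 29 and higher for 0 with library size only. They took 0.58%, 0.54% and 0.54% of the counts in input, 0.32%, 0.21% and 0.22% with PEG and 0.93%, 0.76% and 0.83% in mock. FLNA (ENSG00000196924, chrX:154348524-154374638), the actin-crosslinking filamin A, had 1192, 1121 and 1129 CPM in input, 2026, 1742 and 1835 in mock and 626, 596 and 565 with PEG (log2 fold change -0.90, standard error 0.130, edgeR adjusted p = 0.0008). FLNC, its muscle-enriched relative, fell the most in this list, at -1.42. Directly against mock 29 of 30 were lower with PEG and 0 higher, with a median of -1.15. The 8 long transcripts named by the study, a choice that is not independent evidence of their direction, had log2 fold changes from -2.06 (BCL9L) to -0.29 (DYNC1H1) and 4 were called, all lower (8 with library size only); AHNAK, AHNAK2, MAP1A and DYNC1H1 had an edgeR adjusted p of 0.0517, 0.114, 0.126 and 0.0594, and 0.0223, 0.0121, 0.0461 and 0.0473 with the replicate block. BCL9L was at -3.15 without PEG replicate 1, and ZNF704 and PEG3, both called, kept their calls in 2 and 4 of the 6 fits that left out a library.

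For motor and chromatin proteins more mRNAs fell than rose. Of 71 kinesins, dyneins and myosins, 30 fell and 12 rose (45 and 6 with library size only). MYH9 (ENSG00000100345, chr22:36281281-36388018), non-muscle myosin heavy chain IIA, had 1585, 1516 and 1645 CPM in input, 2151, 2328 and 2509 in mock and 865, 483 and 528 with PEG (log2 fold change -1.29, standard error 0.225, edgeR adjusted p = 0.00177). MYO18A fell further (-1.68). Among called members averaging a log2 CPM of 3 or more, the largest rise was that of DYNC1I2, an intermediate chain of dynein (0.89). Of 84 chromatin modifiers and remodelers, 51 fell, TET2, a DNA demethylase, the most (-1.69), and 5 rose (8 with the block): ARID5A (0.84), BRD9 (0.57), SETD4 (0.49), KDM4C (0.46) and SMARCD2 (0.42), of which KDM4C, SMARCD2 and SETD4 lost the call in 3 or more fits that left out a library. Scaled by library size, 67 fell and 0 rose. ZNF genes, many of which encode KRAB-type repressors, had 172 of 426 lower and 43 higher (268 and 12 with library size only). Ubiquitin-specific proteases had 25 of 46 lower and 0 higher (38 and 0 with library size only), USP37 the most (-1.87, and -2.69 without PEG replicate 1).

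Stress granule proteins were examined as a class because the system models these granules. Of the mRNAs of 26 core members, 17 fell and 0 rose, with a median of -0.58, and with library size only 24 fell and 0 rose. In mock pellets 5 were higher and 5 lower, near the 17.6% and 15.8% of all genes in mock, with a median of -0.10. PRRC2B (ENSG00000130723, chr9:131394093-131500197), a large stress granule component, had 319, 371 and 386 CPM in input, 487, 422 and 493 in mock and 208, 87.6 and 91.0 with PEG (log2 fold change -1.43, standard error 0.312, edgeR adjusted p = 0.0051). Its value without both replicate 1 libraries was -2.03. G3BP1 itself had 408, 287 and 298 CPM in input and 287, 226 and 244 with PEG, and the groups overlapped (edgeR adjusted p = 0.137, 0.0469 with the replicate block, and 0.00796 with library size only). PABPC1, the poly(A)-binding protein, had -0.36 (edgeR adjusted p = 0.0746, and 0.00131 with library size only). FXR1 was the 1 member with a value above 0 under TMM (0.10), named after its value was seen.

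Matrix mRNAs differed between PEG and mock pellets. Collagens, laminins, fibronectin, integrins and related matrix mRNAs, which are translated at the ER, were lower than input for 16 of 62 mRNAs with PEG (25.8%, near the 25.9% of all genes) and higher for 1, SPARC (0.58, and 0.22 with library size only, edgeR adjusted p = 0.159). In mock 28 of these mRNAs were higher and 0 lower, where 17.6% of all genes were higher and 15.8% lower. Their share of counts was 0.37%, 0.55% and 0.57% in input, 0.35%, 0.33% and 0.34% with PEG and 0.71%, 0.89% and 1.03% in mock, so every PEG library was below, and every mock library above, every input library. COL1A1, a chain of type I collagen, had 489, 567 and 612 CPM in input, 1273, 1017 and 1309.8 in mock and 341, 315 and 308 with PEG. ITGB1, the beta-1 integrin and the most abundant member, fell by 0.76, and ITGB3 by 1.42. Directly against mock 42 of the 62 were lower with PEG and 1 higher (median -1.01). Against input, the replicate block called 5 higher and 18 lower, where it called 4656 and 4624 of all 16612 genes. Library size only called 0 higher and 27 lower, where 14.1% and 41.5% of all genes were called. On both settings the share of these mRNAs that was lower was near that of all genes. Solute carriers had a median of -0.06, with 38 of 217 higher and 71 lower (17.5% and 32.7%, against 25.5% and 25.9% of all genes). Among called members averaging a log2 CPM of 3 or more, SLC39A4 rose the most (1.83) and SLC25A51 fell the most (-1.51). On the library-size scale 15 solute carriers were higher and 102 lower, with a median of -0.42.

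Some cytoskeletal paralogs differed in direction. In a list that held actins, tubulins and the actinins ACTN1 and ACTN4, 8 of 20 rose and 2 fell, and of the small actin-binding proteins 11 of 20 rose and 2 fell. Scaled by library size these counts were 4 and 4, and 8 and 8. TMSB10, a thymosin that binds actin monomers, rose by 1.34. TUBB4B had 911, 772 and 800.2 CPM in input and 1708, 1924 and 2060.1 with PEG, while its close paralog TUBB4A had 54.9, 32.0 and 32.6 in input and 17.1, 14.1 and 12.5 with PEG, and neither pair of groups overlapped (1.24 and -1.41). Cofilin genes went apart in the same way, CFL1 at 0.80 and CFL2 at -0.91, and so did the profilins by value, PFN2 at -0.82 and PFN1 at 0.55 (edgeR adjusted p = 0.0535, 0.0397 with the block). ACTN4, the other member that fell in its list, had -0.40 and lost its call in 2 of the 6 fits that left out a library. ACTB, the most abundant, overlapped with input (0.35, edgeR adjusted p = 0.129). CFL1, PFN1, PFN2 and ACTN4 were named after their values were seen.

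RAB GTPases, which direct vesicle traffic, are small proteins, with a median coding length of 0.648 kb. Of their mRNAs 18 of 56 were lower (32.1%, against 25.9% of all genes) and 9 higher (16.1%, against 25.5%), with a median of -0.28. Scaled by library size 35 were lower and 3 higher. RAB23 had 35.2, 22.6 and 21.8 CPM in input and 9.72, 7.30 and 7.45 with PEG (log2 fold change -1.66, standard error 0.235, edgeR adjusted p = 0.000747), and RAB24, the largest rise, had 12.7, 17.2 and 18.7 in input and 30.9, 36.2 and 35.9 with PEG. Within this list the fold change went down with the annotated length of the 3′ UTR (Spearman -0.58) but not with coding length (0.15), a description over genes that share the same libraries. With the trend on exonic length removed, their median was -0.43. That of the cytosolic ribosomal proteins went from 1.37 to 1.07 and that of the giant scaffold proteins from -0.78 to -0.22. Exonic length sums all annotated exons and can exceed the mRNA, so this offset does not set mRNA length aside. Ribosomal protein genes had medians of 2.98 kb of exons and 0.47 kb of coding sequence. Within that list the fold change went down with coding length (Spearman -0.56).

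Length was examined over all genes, since PEG and mock pellets went in opposite directions with it. In each library, the log2 ratio to the mean of input was ranked against length over genes, which are no replicates of one another. Splitting the protein-coding genes by part of the mRNA, Spearman's correlation in the PEG libraries was -0.436 ± 0.0338 (SD, n = 3) for coding length and -0.441 ± 0.00636 (SD, n = 3) for 3′ UTR length, and -0.135 ± 0.00449 (SD, n = 3) for 5′ UTR length. In the mock libraries it was 0.390 ± 0.0209 (SD, n = 3), 0.0401 ± 0.0315 (SD, n = 3) and 0.0283 ± 0.00726 (SD, n = 3). For each of these measures every PEG library was below every mock library (p = 0.1 in a two-sided exact permutation test, below which 3 against 3 cannot go). The median log2 fold change with PEG fell from 0.63 in the shortest of 10 equal groups by coding length (median 0.431 kb) to -0.60 in the longest (4.875 kb), where 55.7% and 1.85% of genes were called higher. By 3′ UTR length it fell from 0.45 in the shortest of 10 groups to -0.50 in the longest.

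Both parts of the mRNA went with the change when genes were cut into 3 equal groups by each. Among genes with short coding regions, the median log2 fold change was 0.82 where the 3′ UTR was also short (1747 genes, 66.3% called higher and 4.64% lower) and -0.19 where it was long (1262 genes, 18.3% and 34.9%). Among genes with long coding regions it was -0.11 with short 3′ UTRs and -0.64 with long ones (1684 genes, 1.66% called higher and 64.4% lower). In mock pellets the same groups had medians of -0.37, -0.24, 0.35 and 0.21. With library size only the PEG medians were 0.48, -0.54, -0.45 and -0.97. UTR and coding lengths are those of the annotated transcript with the longest coding region, which need not be the isoform in these cells.

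Base composition moved with the same genes. GC content over exons correlated with the log2 ratio at 0.336 ± 0.0195 (SD, n = 3) in the PEG libraries and 0.413 ± 0.0246 (SD, n = 3) in mock. In PEG pellets, the coding genes in the shortest of 3 groups by exonic length had medians of 0.19, 0.43 and 0.64 from low to high GC content, and those in the longest group -0.57, -0.41 and -0.24, so the difference between short and long genes was present at each level of GC content. Held at fixed GC content, the correlation with exonic length in the PEG libraries was -0.431.

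Stress-responsive mRNAs, which are short-lived and inducible, rose for 14 of 26 and fell for 2 (8 and 5 with library size only). DDIT3, the transcription factor CHOP of the integrated stress response, had 5.72, 9.27 and 8.94 CPM in input, 9.53, 14.1 and 14.6 in mock and 22.5, 34.1 and 32.6 with PEG (log2 fold change 1.93, standard error 0.213, edgeR adjusted p = 0.000314). The 2 that fell were EGR1 (-0.78), an immediate early transcription factor, and KLF10 (-0.73). ATF4, the master regulator of the same response, had 0.64 and kept its call in 4 of 6 fits that left out a library, but not with library size only (edgeR adjusted p = 0.278). In mock 8 of the list were higher and 3 lower, against 17.6% and 15.8% of all genes, and the median was 0.44, against 0.59 with PEG. Directly against mock 10 were higher with PEG and 2 lower, against 31.3% and 32.2% of all genes, with a median of 0.25. With library size only this direct fit gave 7 higher and 12 lower, with a median of -0.22.

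Among noncoding RNAs, the snoRNA host genes stood out. These lncRNAs carry snoRNAs in their introns, and 18 of 25 were higher with PEG and 2 lower (17 and 2 with library size only), at a median of 1.12, while in mock 2 were higher and 2 lower. SNHG19 had 94.8, 76.4 and 71.2 CPM in input, 62.3, 63.1 and 60.2 in mock and 269, 323 and 339 with PEG (log2 fold change 1.98, standard error 0.166, edgeR adjusted p = 0.000218), and SNHG6, the most abundant, rose by 1.71. The 2 that fell were SNHG4 (-1.44) and SNHG14 (-0.79). LncRNAs named LINC and antisense lncRNAs had medians of 0.11 and 0.08 under TMM and -0.23 and -0.27 with library size only. The medians of all genes were -0.01 and -0.35. With TMM 55 of 267 and 88 of 363 were higher (20.6% and 24.2%, against 25.5% of all genes). With library size only 26 and 45 were higher and 68 and 106 lower, where 14.1% of all genes were higher and 41.5% lower. Nuclear lncRNAs divided: MALAT1 had 219, 201 and 206 CPM in input, 217, 299 and 289.6 in mock and 737, 394 and 502 with PEG (log2 fold change 1.43, standard error 0.219, edgeR adjusted p = 0.00104). NEAT1, the scaffold of paraspeckles, had 514, 773 and 812 CPM in input, 687, 1240.2 and 983 in mock and 455, 251 and 322 with PEG (log2 fold change -0.98, standard error 0.238, edgeR adjusted p = 0.00861). Of the 10 tested, PVT1 also rose (0.48, not called with library size only) and OIP5-AS1 (-0.90) and TUG1 (-0.85) also fell. With TMM 20% of the 10 were thus higher and 30% lower, near the 25.5% and 25.9% of all genes. With library size only 1 of the 10 was higher and 6 lower.

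Transcripts without a usual poly(A) tail enter a poly(A)-selected library only in part, and their values are given with that limit. Of 21 replication-dependent histone genes that could be tested of 71, 12 rose and 1, HIST4H4, fell (-0.58, a call kept in 2 of 6 fits without 1 library), with 9 and 1 on the library-size scale, and near-identical copies within this family can share reads. HIST1H1C, a linker histone, had 40.4, 36.0 and 37.3 CPM in input, 20.5 ± 4.18 in mock (mean ± SD, n = 3) and 111, 106 and 117 with PEG (log2 fold change 1.59, standard error 0.120, edgeR adjusted p = 0.000217). Per library the histone medians were 1.36, 0.78 and 0.67, the highest in PEG replicate 1. Of 11 snoRNA and scaRNA genes 8 rose and 1 fell (4 and 1 with library size only), the latter SNORD17 (-1.45). SNORD104, the largest rise among those called at an average log2 CPM of 3 or more (2.22), lies within its host gene SNHG25, whose reads it can share. RN7SL2, the RNA of the signal recognition particle, was the largest rise of all genes, with 37.6, 31.5 and 17.3 CPM in input, 20.9, 192 and 127 in mock and 513, 159 and 161 with PEG (log2 fold change 3.31, standard error 0.511, edgeR adjusted p = 0.00107), and 2.47 without PEG replicate 1. Its level in mock replicate 1 was within the range of input. Its near-identical copies can share its reads, and against mock it was not called (edgeR adjusted p = 0.0965).

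By the fixed rule the 8 largest rises were RN7SL2, MT-ND3, AC090498.1, RPL9P9, SNORD104, SYCE1L, RPS28P7 and TPGS1, with log2 fold changes from 3.31 down to 2.11. Of these only SYCE1L and TPGS1 encode proteins of the nuclear genome. SYCE1L had 7.62, 9.17 and 9.10 CPM in input and 27.1, 37.1 and 45.4 with PEG, and TPGS1, a subunit of the tubulin polyglutamylase, had 9.17, 16.9 and 18.9 in input and 49.0, 68.3 and 71.2 with PEG. The 8 largest falls were those of PCDHGC3, TSTD2, CCNK, LINC00862, RAVER1, AIDA, NFIX and POLR2A, from -2.45 to -2.12. CCNK (ENSG00000090061, chr14:99481169-99535044), the cyclin partner of CDK12 and CDK13, had 36.1, 26.4 and 28.8 CPM in input, 17.8, 14.3 and 16.3 in mock and 7.85, 5.45 and 4.22 with PEG (log2 fold change -2.34, standard error 0.241, edgeR adjusted p = 0.000274). AIDA, with 112, 83.6 and 79.6 in input, 62.1, 46.5 and 46.3 in mock and 23.2, 20.2 and 17.6 with PEG, and CCNK were lower in both pellets and lower still with PEG (edgeR adjusted p against mock = 0.000124 and 0.000348). RAVER1, a ribonucleoprotein that binds PTB, had 52.2, 50.6 and 54.4 in input, 74.3, 56.4 and 62.2 in mock and 17.9, 8.48 and 8.11 with PEG. Without PEG replicate 1, NFIX and TSTD2 were at -2.93 and -3.11, and without input replicate 1 LINC00862 was at -1.42. PCDHGC3 shares exons with the other genes of its protocadherin cluster, so its reads may not be its own.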

How the data were processed

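RNA of input extract, mock pellets and PEG pellets was sequenced after poly(A) selection as paired-end reads, in 3 biological replicates each. The values are whole-number counts of reads per gene, deposited by the authors as 1 file per library and not normalised. The submitters' processing notes name Trimmomatic 0.36, STAR 2.5.2b, featureCounts (Subread 1.5.2) and GRCh38. The strand setting of the counting and the annotation release are not given in the sources used here. Of 57500 gene identifiers, 56898 were found in GENCODE 29, 54784 of them with the same start and end, and this release gave symbols, coordinates and lengths. Promoter starts came from RefSeq (GRCh38.p14).

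A gene was kept when 2 or more replicates of all 5 conditions had 10 or more counts. Counts were tested with edgeR 4.0.16 in R 4.3.3 (quasi-likelihood test, TMM, prior count 2, Benjamini-Hochberg adjusted p below 0.05) in the 6 libraries compared, and mock libraries were tested in fits of their own. The alternatives were library size only, DESeq2 1.42.0 and its size factors, other filters, offsets for length or GC content, equal depth, a replicate block and leaving out each library. Printed CPM are TMM-normalised over 9 libraries, except those of the cell type markers, which are scaled to the library total. The fitting script was tested on simulated counts. Libraries with the same replicate number tended to deviate together (correlation of deviations between PEG and input 0.131 to 0.276 with the same number, -0.249 to 0.195 otherwise). These ranges overlap. The main fits were unpaired, and their p-values take no account of pairs. Only the replicate block took the numbers as pairs. P-values measure the spread between extracts of 1 cell line.

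The members and lists were chosen with earlier results of these data known. Named genes are, among called genes averaging a log2 CPM of 3 or more, the 8 largest rises and 8 largest falls without overlap between libraries, the largest rise and fall of each list, the most abundant member of each list in input, G3BP1, MALAT1, NEAT1 and the 12 transcripts the study names. XIST and genes of the Y chromosome were left out. Others that are named, mostly the few called members of a list and the genes whose start sequences are shown, were chosen after their values were seen: BRD9, CANX, EEF2, FXR1, HIST4H4, HNRNPLL, KDM4C, KLF10, OIP5-AS1, POLR2D, POLR2L, PVT1, RPL38, RPL41, RPLP1, RPS23, SETD4, SMARCD2, SNHG14, SNORD17, SRSF10, STT3B, TUG1, COL1A1, MT-ND6 and PRRC2C. Exonic length is the union of annotated exons.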

Additional observations from a re-analysis of the deposited data

Results flagged for a closer look

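With TMM, in 28 lists every PEG library had a median on one side of input and every mock library on the other. The difference between lists was not tested, and PEG and mock ratios use the same inputs, so the values given are the medians of the direct PEG against mock log2 fold changes. Lists above input with PEG and below it in mock were cytosolic ribosomal proteins (2.00), mitochondrial ribosomal proteins (1.64), translation factors (0.84), aminoacyl-tRNA synthetases (0.84), respiratory chain subunits (1.92) and TOMM and TIMM proteins (1.05). Glycolytic enzymes (1.25), proteasome subunits (1.48), CCT subunits (1.41), heat shock proteins and DNAJ co-chaperones (0.21) and ER translocon and folding factors (1.02) were among them. So were actins and tubulins (0.90), small actin-binding proteins (1.09), histones (1.35), SR proteins and hnRNPs (0.74), Sm and LSm proteins (1.85) and RNA polymerase II subunits (1.04). The noncoding lists among them were snoRNA host lncRNAs (1.13), LINC lncRNAs (0.19), antisense lncRNAs (0.19), snoRNAs and scaRNAs (1.30) and small cytoplasmic RNAs (2.20, from 2 genes). The short transcripts the study names had 2.13. With library size only, the direct medians turned to -0.25 for heat shock proteins, -0.27 for LINC lncRNAs and -0.26 for antisense lncRNAs. On that scale their PEG over input medians were also below 0 (-0.19, -0.23 and -0.27). So were those of translation factors (-0.03), aminoacyl-tRNA synthetases (-0.01) and SR proteins and hnRNPs (-0.04).

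Lists below input with PEG and above it in mock were collagens, laminins, fibronectin and integrins (-1.01), kinesins, dyneins and myosins (-0.58), giant scaffold proteins (-1.15), chromatin modifiers (-0.83) and the long transcripts the study names (-0.90).

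Among genes left out by the filter over 5 conditions, 169 passed a filter over PEG and input alone. Of these 55 were higher with PEG and 0 lower by the same edgeR test, with a median log2 fold change of 0.81. These genes could pass only by their level in the 2 groups, so the direction carries that choice.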

How the results depend on the processing

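With library size only, PEG against input gave 2337 genes higher and 6890 lower, and PEG against mock 3118 and 8272. A minimum absolute log2 fold change of 1 left 1618 higher and 1237 lower against input, and 2800 and 2074 against mock. The other settings kept both counts within 1.5 times. Leaving out 1 library gave 2944 to 5195 higher and 3475 to 5063 lower against input. Without both replicate 1 libraries, a setting chosen after seeing the data, 5790 were higher and 5918 lower. With the replicate block, which pairs libraries of the same number, 4656 were higher and 4624 lower against input, and 5598 and 5716 against mock. The block changed the calls of MT-ND6, HSP90AB1, PFN1, DYNC1H1, AHNAK, AHNAK2, MAP1A, G3BP1 and TOMM5, and of no other gene that the rule picks or the text names.

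The correlation with exonic length in the PEG libraries was -0.460. It was -0.436 with coding length, -0.525 with the longest annotated transcript, -0.499 among protein-coding genes and -0.431 at fixed GC content. BCYRN1, which was not called (leaving out 1 library gave -0.62 to 0.69), changed sign without input replicate 1 (0.69) and without the replicate 1 libraries (0.54), and PRRC2C, not called either, with the length offset (0.47). The causes were not tested.

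Depth was lowest in PEG replicate 1, which also stood apart from the other PEG libraries. The total RNA pelleted was not measured, so no scaling is known to be right. Lengths are from annotation and not from the isoforms present. Without a stated strand setting, reads of antisense and overlapping genes cannot be told apart.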

Other observations

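Further genes of the lists had these log2 fold changes of PEG over input. HSPE1, the small mitochondrial co-chaperonin, rose by 1.58 and DNAJC13, a large endosomal DNAJ protein, fell by 1.28, while the abundant HSP90AB1 was at 0.45 (edgeR adjusted p = 0.0842, 0.0444 with the replicate block). In this list 18 of 61 were higher and 12 lower with TMM (29.5% and 19.7%, against 25.5% and 25.9% of all genes), and 12 higher and 21 lower with library size only, where the median turned from 0.16 to -0.19. ZNF428 rose by 1.40, with 82.8, 87.5 and 99.2 CPM in input and 199.6, 224 and 263 with PEG, and ZNF770 fell the most (-2.03). DDX28, a mitochondrial helicase, rose by 1.33.

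Processed pseudogenes, which are copies of spliced mRNAs, were higher for 133 of 310 and lower for 31, with a median of 0.62, against 25.5% and 25.9% of all genes. Their reads can belong to the parent genes, many of which encode ribosomal proteins. BCYRN1, a small neuronal and tumour RNA, had 872, 204 and 284 CPM in input, 88.0, 33.3 and 22.8 in mock and 437, 329.9 and 352 with PEG, and input replicate 1 was the highest library.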
